A study of Mus musculus with 8 samples.

Results

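The circadian clock genes of epididymal white fat were described across 8 obese male mice. The members are the 10 transcripts Arntl (also called Bmal1), Clock, Per1, Per2, Per3, Cry1, Cry2, Nr1d1, Nr1d2 and Dbp, chosen by name out of 55487 gene identifiers, and all 10 were found in the tables and passed the filter on low values. The 4 AKO mice, numbered 3, 8, 9 and 11 in the labels, carried floxed Slc16a1 and an AP2-Cre transgene, which uses the promoter of Fabp4, a gene of fat cells that macrophages can also express, and the labels give their genotype as Slc16a1 -/-. The 4 WT mice, numbered 2, 3, 4 and 5, carried the floxed Slc16a1 alleles without Cre, so they are controls for the deletion but not for Cre itself. All 8 mice were C57BL/6 males made obese by a high-fat diet (HFD). Slc16a1 encodes MCT1, a carrier of lactate and other monocarboxylates. The labels used here give no age, hour of tissue collection, light schedule or feeding state.

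The clock is a loop of transcription and repression that runs in nearly every cell, fat cells included. CLOCK and ARNTL (BMAL1) bind together to E-box elements and switch on the Per, Cry, Nr1d and Dbp genes. PER and CRY proteins then block CLOCK and ARNTL, while the REV-ERB receptors made from Nr1d1 and Nr1d2 repress Arntl, and DBP acts through D-box elements on targets that include Per genes. In mouse tissues kept in a light and dark cycle, Nr1d1 rises to its peak in the light phase, Dbp and Per3 follow, Per1 and Per2 peak around dusk, Cry1 peaks later in the night, and Arntl peaks near the end of the night, opposite to Nr1d1 and Dbp. The pair of levels of Arntl and of an opposite gene in 1 animal therefore moves with the phase of its clock.

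Values are TPM (transcript abundance scaled by transcript length and library total), summed over the transcript rows of each gene. Depth is unknown because TPM does not keep it, and counting intervals are left out. The fat cell genes Adipoq, Plin1, Lep, Cidec, Lipe, Pparg and Retn were each above 100 TPM in all 8 libraries. The markers of epididymal epithelium Lcn8 and Lcn9 were listed at 0 throughout. The other listed marker of that epithelium, Rnase10, was 0.22 to 0.54 TPM in AKO mice and 0 to 0.28 TPM in WT mice. The summed level of the 7 fat cell markers was 9185 to 12924 TPM in AKO mice and 9643 to 15914 TPM in WT mice, and that of 7 macrophage markers was 1890 to 4000 TPM in AKO mice and 519.0 to 3125 TPM in WT mice. Slc16a1 was 21.5 to 27.1 TPM in AKO mice and 15.7 to 28.5 TPM in WT mice, so its total does not tell the genotypes apart. AKO and WT stand for those labels throughout. In bulk tissue, fewer cells of a type and less RNA per cell cannot be told apart.

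Promoter stretches are shown for 4 members, because they hold the elements through which the members are known to act on each other. The RefSeq promoter table (GRCm38.p6) covers 250 bases before to 50 bases after each annotated start and matched 9 of the 10 members, all but Per2, with 13 windows. Sequences are given 5′ to 3′ on the strand of the gene, and capitals mark the motif matches. Per3 shows a pair of D-boxes, Per1 an E-box and a D-box variant, Cry1 an E-box with a near E-box in front of it (here on the other strand), and Arntl, at its second annotated start, a pair of REV-ERB/ROR elements.
Per3 (chr4:151044666-151044915, minus strand): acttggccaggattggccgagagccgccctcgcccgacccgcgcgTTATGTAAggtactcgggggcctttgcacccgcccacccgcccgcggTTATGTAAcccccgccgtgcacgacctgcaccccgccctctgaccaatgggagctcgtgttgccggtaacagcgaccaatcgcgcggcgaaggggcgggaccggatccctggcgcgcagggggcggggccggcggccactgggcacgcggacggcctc
Per1 (chr11:69098699-69098948, plus strand): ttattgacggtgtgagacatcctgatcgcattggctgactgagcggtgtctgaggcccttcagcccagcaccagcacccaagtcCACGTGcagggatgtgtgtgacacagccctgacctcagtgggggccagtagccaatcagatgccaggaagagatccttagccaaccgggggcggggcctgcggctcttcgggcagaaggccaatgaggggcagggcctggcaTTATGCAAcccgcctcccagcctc
Cry1 (chr10:85185055-85185304, minus strand): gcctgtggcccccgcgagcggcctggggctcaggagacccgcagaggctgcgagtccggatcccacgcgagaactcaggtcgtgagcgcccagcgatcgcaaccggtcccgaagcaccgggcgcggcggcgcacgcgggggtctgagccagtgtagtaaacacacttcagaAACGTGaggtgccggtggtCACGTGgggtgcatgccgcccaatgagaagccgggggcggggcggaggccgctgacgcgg
Arntl, first element (chr7:113207494-113207523, plus strand): tggtcggaaagTAGGTTAgtggtgcgacat
Arntl, second element (chr7:113207530-113207559, plus strand): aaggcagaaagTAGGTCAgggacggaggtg

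The motifs were searched on both strands over whole windows of 300 bases. The E-box CACGTG was present in 7.15% of all 32817 windows in the table, the near E-box CACGTT in 4.69%, the D-box TTATGTAA in 0.935%, its variant TTATGCAA in 0.744%, and the element TAGGTNA in 8.29%. Among the 9 members in the table, the E-box was found in 2 (Per1 and Cry1), the near E-box in 3 (Cry1, Cry2 and Nr1d1), the D-box in 1 (Per3), its variant in 1 (Per1), and TAGGTNA in 1 (Arntl). In Per3 both D-boxes lie before the start. No motif overlaps another in these windows. These matches describe letters only. Neither binding nor chromatin was measured.

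The REV-ERB genes and Dbp were the most abundant members in every mouse, and Arntl and Cry1 the least abundant on average. Mean levels over the 8 mice were 73.2 TPM for Nr1d1, 53.6 for Dbp, 34.5 for Nr1d2, 22.9 for Cry2, 20.9 for Per1, 15.2 for Clock, 11.3 for Per3, 8.36 for Per2, 5.96 for Cry1 and 4.08 for Arntl. Neighbours in this order had ranges that overlapped over the 8 mice, except Nr1d2 above Cry2. Within single mice the order was steadier. Each gene exceeded the next one in 8 of 8 mice, apart from Cry2 above Per1 (6 of 8) and Cry1 above Arntl (7 of 8).

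**Figure D1:**
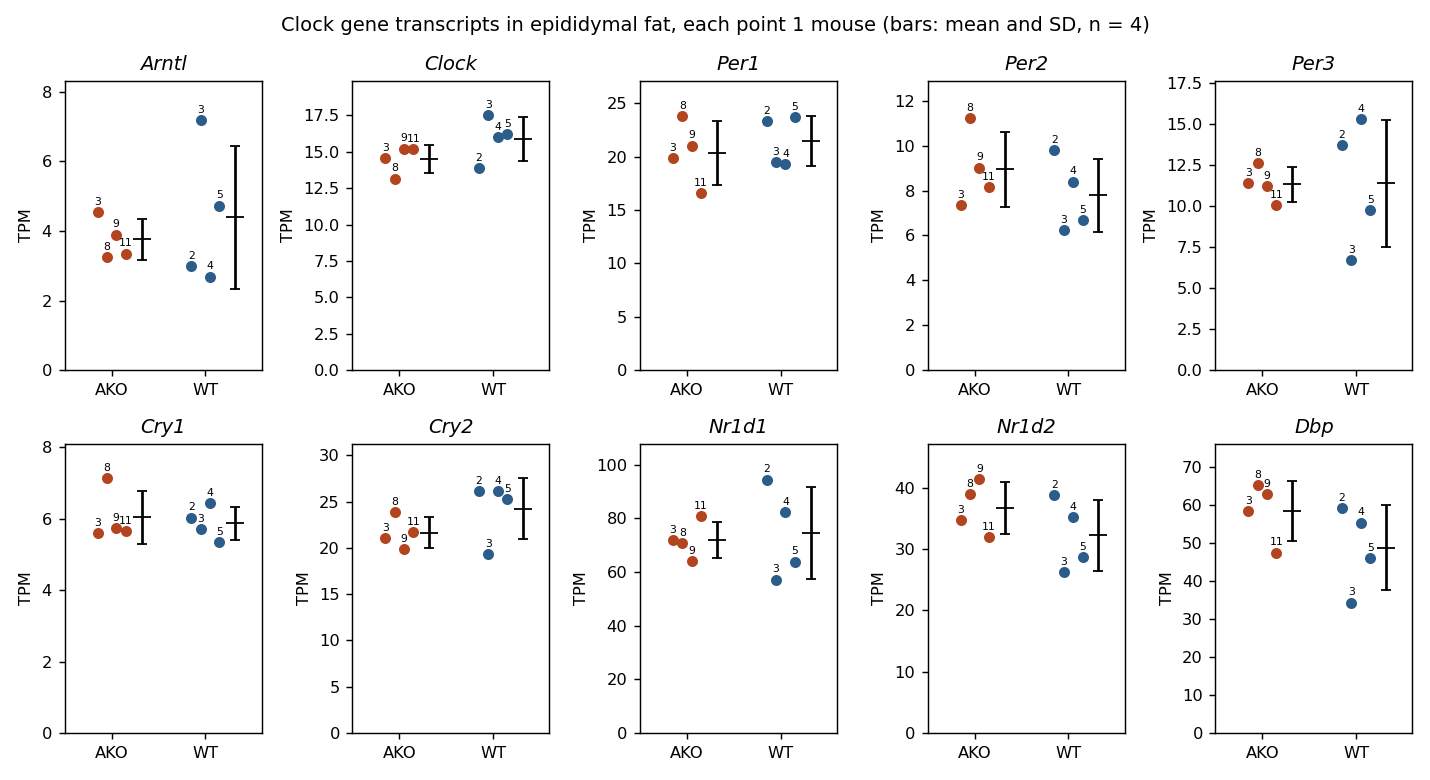
TPM of each of the 10 clock genes in AKO mice (left in each panel) and WT mice (right), with each point 1 mouse labelled by its number and bars giving mean and SD (n = 4). WT mouse 3 has the highest Arntl, at 7.18 TPM, and the lowest Dbp, at 34.3 TPM, and the groups overlap for all 10 genes.

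The activators come first. Arntl, the partner of CLOCK and the one core gene whose loss alone stops the mouse clock, had 4.55, 3.25, 3.90 and 3.35 TPM in AKO mice 3, 8, 9 and 11. In WT mice 2, 3, 4 and 5 it had 2.99, 7.18, 2.69 and 4.73 TPM. WT mice thus held both the lowest values and the highest one, a 2.67-fold span, and the AKO values lay inside it. Clock, whose product pairs with ARNTL, varied little, with 14.6, 13.2, 15.2 and 15.2 TPM in AKO mice and 13.9, 17.5, 16.00 and 16.2 TPM in WT mice. Its highest value was again in WT mouse 3. Npas2, a paralogue that can stand in for CLOCK, was 0.850 to 2.50 TPM in AKO mice and 0.330 to 1.57 TPM in WT mice, too low to be tested. 

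The REV-ERB genes and Dbp ran the other way. Nr1d1, which encodes REV-ERB alpha, had 71.9, 70.9, 64.2 and 80.8 TPM in AKO mice 3, 8, 9 and 11, and 94.5, 57.2, 82.5 and 63.9 TPM in WT mice 2, 3, 4 and 5. Nr1d2, which encodes REV-ERB beta, had 34.8, 39.0, 41.4 and 31.9 TPM in AKO mice and 38.7, 26.3, 35.2 and 28.7 TPM in WT mice. Dbp, a D-box activator and one of the most strongly cycling transcripts of mouse tissues, had 58.3, 65.1, 62.9 and 47.4 TPM in AKO mice and 59.2, 34.3, 55.3 and 46.0 TPM in WT mice. WT mouse 3, highest in Arntl, was the lowest of the 8 in all 3 of these genes. In GENCODE M21, 539 of the 2993 exon bases of Dbp also belong to Sphk2, and 8.55% of those of Nr1d1 to Thra, both on the opposite strand. Sphk2 was 16.7 to 23.9 TPM in AKO mice and 14.2 to 19.8 TPM in WT mice, and Thra 41.3 to 49.9 TPM in AKO mice and 38.8 to 52.4 TPM in WT mice. Whether the authors' quantification used strand was not given in the sources used here. Reads of these partners therefore cannot be told apart, and both clock levels carry that uncertainty.

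Among the period genes, which encode the repressors that time the loop, Per3 varied most. It had 11.4, 12.6, 11.2 and 10.1 TPM in AKO mice 3, 8, 9 and 11, and 13.7, 6.70, 15.3 and 9.77 TPM in WT mice 2, 3, 4 and 5. As with Arntl, the AKO values lay within the span of the WT values, which ran the other way from Arntl. Per2 had 7.34, 11.2, 9.02 and 8.15 TPM in AKO mice and 9.79, 6.24, 8.40 and 6.69 TPM in WT mice. Per1, which also responds to glucocorticoids and to acute stimuli, had 19.9, 23.8, 21.1 and 16.6 TPM in AKO mice and 23.3, 19.5, 19.3 and 23.7 TPM in WT mice. WT mouse 3 was not the extreme of Per1. The cryptochrome genes, which encode the partners of PER, spanned less. Cry1 was 5.60 to 7.14 TPM in AKO mice and 5.35 to 6.43 TPM in WT mice, with AKO mouse 8 highest. Cry2 was 19.9 to 23.9 TPM in AKO mice and 19.4 to 26.1 TPM in WT mice, with WT mouse 3 lowest.

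The spread of the members over the 8 mice was near that of other genes. The SD of log2(TPM + 1) had a median of 0.23 over the 10 members and 0.20 over the 14172 genes tested, and 6 of 10 members lay above the median of all genes tested. It was 0.37 for Arntl, 0.33 for Per3, 0.30 for Dbp, 0.25 for Per2, 0.23 for Nr1d1 and 0.22 for Nr1d2. It was 0.17 for Per1, 0.17 for Cry2, 0.12 for Clock and 0.11 for Cry1.

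The phase relations between members were read from the 45 pairwise correlations of log2(TPM + 1) over the 8 mice, each tested by exact two-sided permutation over all pairings and adjusted over the 45 pairs by the Benjamini-Hochberg method. All 16 correlations of Arntl and Clock with the other 8 members were negative, from -0.92 to -0.055 with a median of -0.69. Cry1, placed later in the night than Dbp in the order given above, had r = -0.55 with Arntl and 0.51 with Dbp (exact permutation p = 0.165 and 0.207). These signs therefore do not set Cry1 apart from Dbp as that order would. Arntl and Clock had r = 0.63 with each other, which did not pass (exact permutation p = 0.0946, adjusted p = 0.203; rho = 0.55, exact permutation p = 0.171), and 0.25 without WT mouse 3. The other 8 members were positively correlated in 27 of 28 pairs, with a median of 0.50. With each genotype centred on its own mean, the same counts held (16 of 16 negative and 27 of 28 positive). Without WT mouse 3 they were 14 of 16 and 25 of 28. Of the 45 pairs, 37 kept the sign of r with the highest row per gene in place of the sum. The number was also 37 without the 2 mice farthest from the median of the first gene of each pair. Groups of 4 are too few for a correlation within a genotype. The members share libraries, so these signs are not separate observations.

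**Figure D2:**
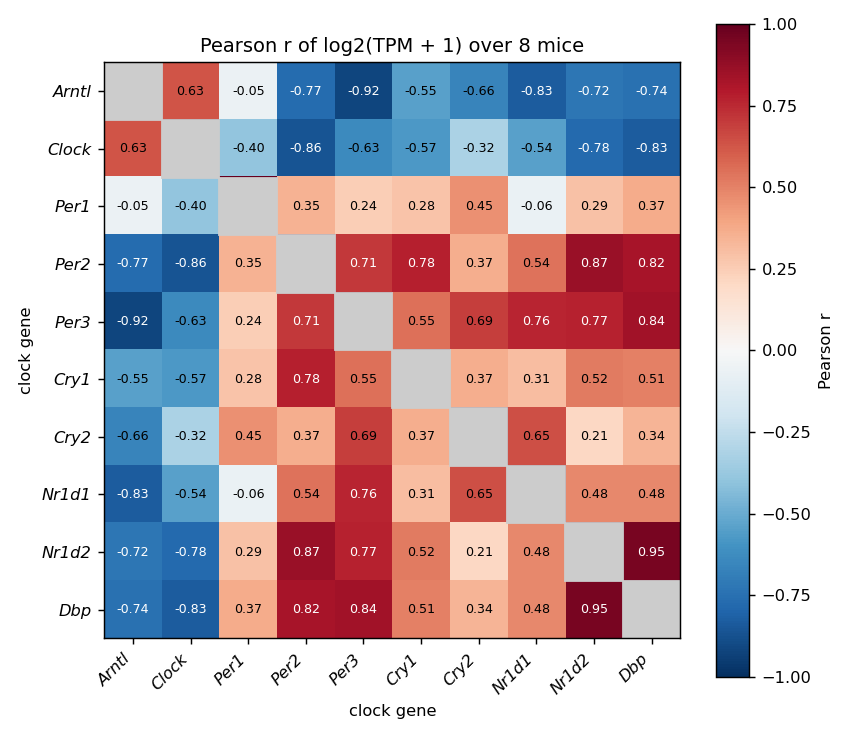
Pearson r between each pair of the 10 clock genes over 8 mice, with genes on both axes, red positive, blue negative and the diagonal in grey. Arntl and Clock are negative with all 8 other genes (-0.92 to -0.055), and Per1 is the member with the weakest relations to the rest.

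One of the 45 pairs passed the threshold, and 17 had an unadjusted exact permutation p below 0.05. Nr1d2 and Dbp rose and fell together (r = 0.95, exact permutation p = 0.000248, adjusted p = 0.0112, n = 8). Their rank correlation was 0.95 (exact permutation p = 0.00114, adjusted p = 0.0513), and r was 0.89 without WT mice 3 and 5, the mice farthest from the median of Nr1d2. The adjusted p was 0.0893 without WT mouse 3, with r = 0.94. It was also 0.0893 without WT mouse 5, and 0.176 with each genotype centred on its mean. With that centring r was 0.93, and the 576 pairings within groups are too few for a lone pair to pass.

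The strongest opposite pair was Arntl with Per3 (r = -0.92, exact permutation p = 0.00250, adjusted p = 0.0564, n = 8; rho = -0.90, exact permutation p = 0.00456). It did not pass, and r was -0.64 without WT mice 3 and 4, the mice farthest from the median of Arntl (exact permutation p = 0.182). Without WT mouse 3 alone r was -0.78, and without WT mouse 4 alone -0.90. The adjusted exact permutation p was below 0.05 with the highest row per gene (0.0212), with median-ratio scaling (0.0112), without AKO mouse 3 (0.0357) and without AKO mouse 11 (0.0179). Arntl with Nr1d1, the gene of the receptor known to act on elements like those printed above for Arntl, had r = -0.83 (exact permutation p = 0.00972, adjusted p = 0.0649; rho = -0.86, exact permutation p = 0.0107) and -0.74 without WT mice 3 and 4 (exact permutation p = 0.0931). Arntl with Dbp had r = -0.74 (exact permutation p = 0.0352, adjusted p = 0.113; rho = -0.55, exact permutation p = 0.171) and -0.36 without the same mice. It rests on WT mouse 3, since r was -0.27 without WT mouse 3 and -0.79 without WT mouse 4. Per3, whose promoter holds the D-boxes printed above, had r = 0.84 with Dbp (exact permutation p = 0.0131, adjusted p = 0.0738; rho = 0.64, exact permutation p = 0.0962) and 0.78 without WT mice 3 and 4, but 0.54 without WT mouse 3 alone. With values as reported, none of these 4 pairs passed the adjusted threshold over all 8 mice. Clock with Per2 (r = -0.86), Clock with Dbp (r = -0.83) and Per2 with Nr1d2 (r = 0.87) did not pass either. The adjusted exact permutation p was 0.0649 for each. Without AKO mouse 8 and WT mouse 3 their r was -0.58, -0.56 and 0.84. Both Clock pairs passed without WT mouse 4 (adjusted exact permutation p = 0.0459), and Clock with Per2 without AKO mouse 3 (0.0357). With the highest row per gene, Arntl with Dbp (r = -0.91, adjusted exact permutation p = 0.0411) and Per3 with Dbp (r = 0.83, 0.0446) passed. Arntl with Nr1d1 did not (0.0686). Per3 with Dbp also passed without WT mouse 4 (0.0459). Per1, with an E-box and a D-box variant, had r = -0.055 with Arntl and 0.37 with Dbp (exact permutation p = 0.889 and 0.372). Whether the printed motifs bear on any relation was not tested.

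**Figure D3:**
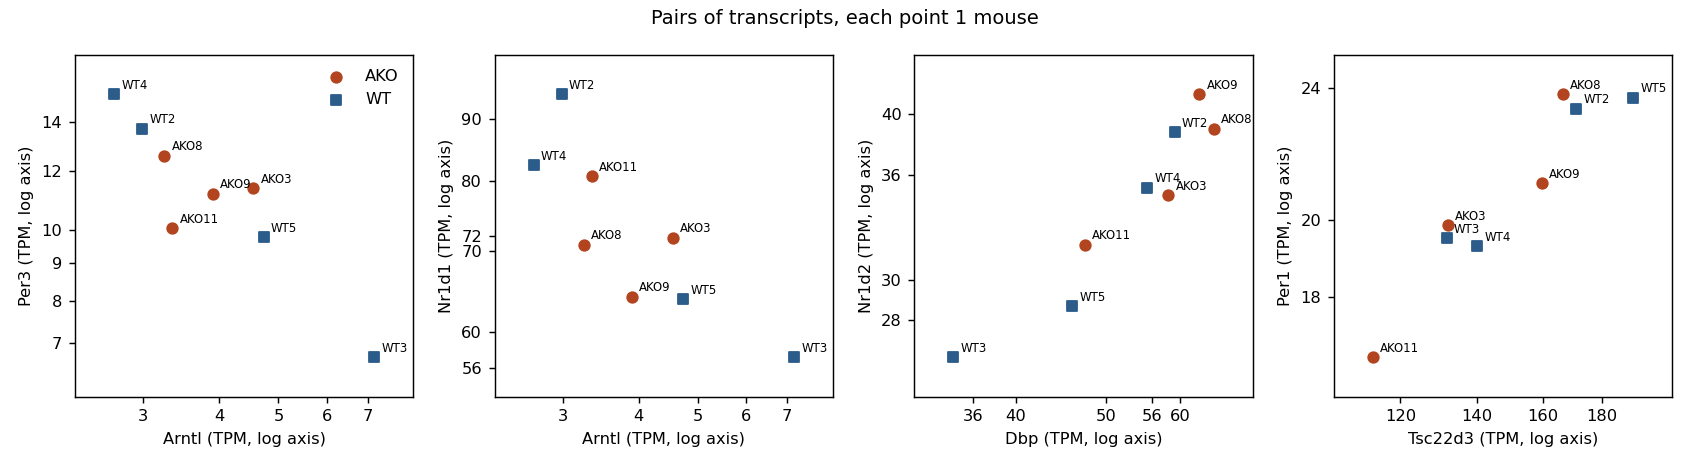
TPM on logarithmic axes for Arntl with Per3, Arntl with Nr1d1, Dbp with Nr1d2, and Tsc22d3 with Per1, with each point 1 mouse (AKO circles, WT squares). WT mouse 3 lies at the end of the first 3 clouds (Arntl 7.18 TPM, Per3 6.70 TPM), and AKO mouse 11 at the low end of the last (Per1 16.6 TPM).

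The same relation can be put as a difference of log2(TPM + 1) between 2 genes in 1 mouse. Dbp minus Arntl was 3.42, 3.96, 3.70 and 3.48 in AKO mice 3, 8, 9 and 11, against 3.92, 2.11, 3.93 and 3.04 in WT mice 2, 3, 4 and 5. WT mice 3 and 5 were lowest. Nr1d1 minus Arntl was 3.71 to 4.23 in AKO mice and 2.83 to 4.58 in WT mice. Per3 minus Arntl was 1.16 to 1.68 in AKO mice and -0.087 to 2.14 in WT mice, the lowest value being WT mouse 3. WT mouse 3 was the lowest of the 8 in all 3 differences. The signs of these differences carry no phase. They follow from the mean levels of the genes, apart from Per3 minus Arntl in WT mouse 3. The tables hold no time series of this fat pad to set these differences against, so the hour of collection, and whether mice were collected at different hours, was not tested.

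AKO and WT mice did not differ past the threshold in any of these differences by exact permutation over 70 arrangements, whose smallest possible p is 0.0286. A lone difference at that p would not pass adjustment over the 4 differences, so this test could not call a single one by itself. The AKO mean minus the WT mean was 0.39 for Dbp minus Arntl (AKO 3.64 ± 0.247, WT 3.25 ± 0.868, SD, n = 4 each, exact permutation p = 0.486). It was 0.087 for Nr1d1 minus Arntl (AKO 3.94 ± 0.257, WT 3.85 ± 0.840, exact permutation p = 0.886) and 0.16 for Per3 minus Arntl (AKO 1.37 ± 0.218, WT 1.21 ± 1.02, exact permutation p = 0.829). Nr1d1 minus Dbp, 2 genes next to each other in phase, differed by -0.30 (AKO 0.30 ± 0.324, WT 0.60 ± 0.113, exact permutation p = 0.171). Adjusted over the 4 differences, p was 0.686 for the last and 0.886 for the others. In the 3 differences that involve Arntl the SD was larger in WT mice than in AKO mice; the difference in spread was not tested. Without WT mouse 3 the AKO mean minus the WT mean was 0.011 for Dbp minus Arntl, -0.25 for Nr1d1 minus Arntl and -0.27 for Per3 minus Arntl. For Nr1d1 minus Arntl it also turned below 0 without WT mouse 5 (-0.030) and without AKO mouse 11 (-0.010).

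**Figure D4:**
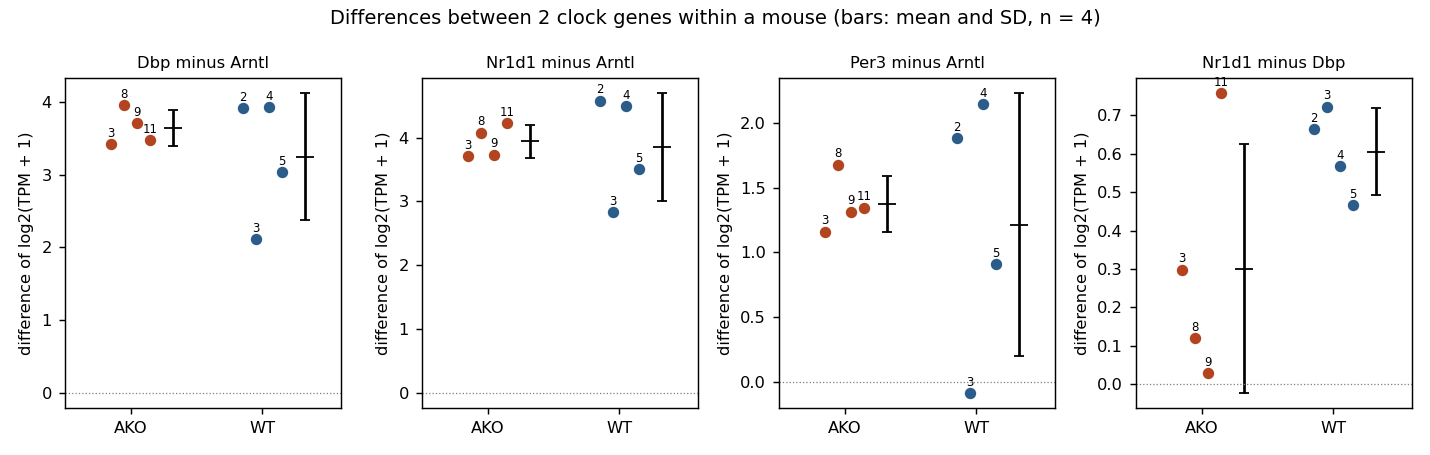
Difference of log2(TPM + 1) between 2 clock genes within each mouse, AKO left and WT right in each panel, with mouse numbers, mean and SD (n = 4). WT mouse 3 is lowest in the 3 panels with Arntl (2.11 for Dbp minus Arntl).

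For AKO against WT, limma with Benjamini-Hochberg adjustment over all 14172 genes tested called 0 of the 10 members at an FDR below 0.05. The background share called was 0.0282% (4 genes), of which 0.0212% were higher and 0.00706% lower in AKO mice, so 0 of 10 is near the background. At an unadjusted limma p below 0.05, 0 of 10 members were called against 4.75% of all genes tested. Groups did not overlap for 0 of 10 members, against 2.44% of all genes (AKO above in 1.11% and below in 1.33%). Of the log2 fold changes, 5 were above 0 and 5 below, with a median of 0.0012 over the members and 0.015 over all genes tested, and a median size of 0.12 over the members and 0.11 over all genes.

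Dbp had the smallest p of the 10, at 58.4 ± 7.88 TPM in AKO mice and 48.7 ± 11.1 TPM in WT mice (SD, n = 4 each). Its log2 fold change was 0.28 (SE 0.18, 95% interval -0.12 to 0.68, limma FDR = 0.831). Nr1d2 followed, at 36.7 ± 4.24 TPM in AKO mice and 32.2 ± 5.76 TPM in WT mice (log2 fold change 0.19, interval -0.12 to 0.51, limma FDR = 0.831). Without WT mouse 3 these log2 fold changes were 0.12 for Dbp and 0.10 for Nr1d2. Cry2 then had a log2 fold change of -0.25 (limma FDR = 0.332) and was the 1 member of 10 with an unadjusted limma p below 0.05. Without WT mouse 3, 1938 of all 14172 genes tested had an unadjusted limma p below 0.05, so 1 of 10 is near the background. Arntl had 3.76 ± 0.598 TPM in AKO mice and 4.40 ± 2.06 TPM in WT mice (log2 fold change -0.11, limma FDR = 0.932). Its interval, -0.68 to 0.45, was the widest of the 10, and its sign turned without WT mouse 3 (0.11). Clock was 14.5 ± 0.960 TPM in AKO mice and 15.9 ± 1.504 TPM in WT mice, with an interval of -0.33 to 0.089 on the log2 scale. Intervals were -0.19 to 0.56 for Per2, -0.46 to 0.55 for Per3, -0.36 to 0.20 for Per1, -0.21 to 0.27 for Cry1, -0.41 to 0.10 for Cry2 and -0.39 to 0.33 for Nr1d1. Changes of these sizes in either direction could therefore not be told from 0 with these 8 mice.

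**Figure D5:**
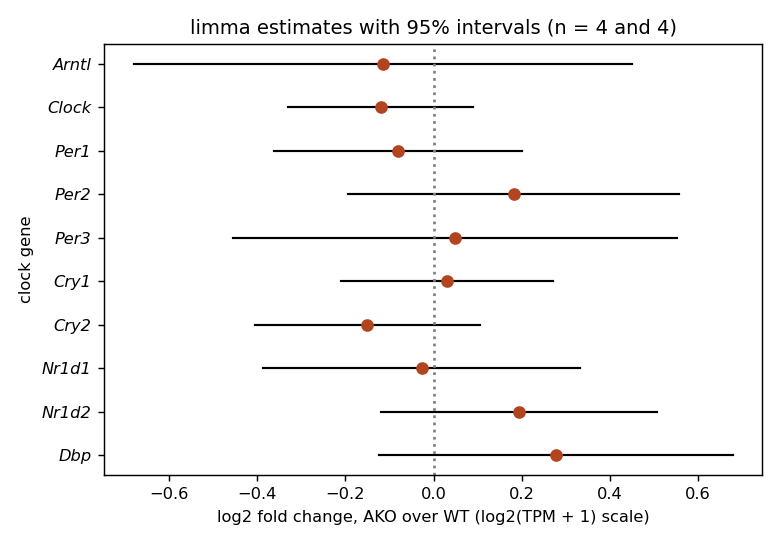
limma log2 fold change of each clock gene, AKO over WT, on the log2(TPM + 1) scale (points) with 95% intervals (lines). All 10 intervals include 0, from Dbp at 0.28 to Cry2 at -0.15.

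Of the genes around the loop, Tef followed a member most closely. Tef, which encodes a D-box activator of the same PAR bZIP family as DBP, had 56.4, 62.7, 53.3 and 49.8 TPM in AKO mice 3, 8, 9 and 11, and 61.9, 36.9, 64.8 and 46.9 TPM in WT mice 2, 3, 4 and 5. These values follow those of Per3 mouse by mouse. The correlation of Per3 with Tef was 0.98 (exact permutation p = 7.44e-05; rho = 0.98, exact permutation p = 0.000397; r = 0.96 without WT mice 3 and 4). It was the 1 of 360 relations between the 10 members and 36 other listed genes that passed adjustment (adjusted p = 0.0268 for r, and 0.143 for rho). Nfil3, a repressor that binds the same D-boxes, had r = -0.90 with Nr1d1 (exact permutation p = 0.00317, adjusted p = 0.163; rho = -0.86, exact permutation p = 0.00843) and -0.66 without WT mice 2 and 3. It was 4.28 to 5.95 TPM in AKO mice and 2.75 to 8.52 TPM in WT mice, with WT mouse 3 highest.

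For 3 further clock-controlled genes the relation to Dbp did not pass. Ciart, a CLOCK and ARNTL repressor, was 1.63 to 5.31 TPM in AKO mice and 1.51 to 3.02 TPM in WT mice, with AKO mouse 3 highest, and had r = 0.47 with Dbp (exact permutation p = 0.238). Bhlhe41, another repressor at E-boxes, was 8.19 to 14.1 TPM in AKO mice and 6.59 to 13.04 TPM in WT mice and had r = 0.040 with Dbp (exact permutation p = 0.927). Usp2, a ubiquitin protease gene driven by the clock, was 2.47 to 5.03 TPM in AKO mice and 1.89 to 4.38 TPM in WT mice (r = -0.55 with Dbp, exact permutation p = 0.158). Without WT mice 3 and 5 these values of r were 0.33, 0.51 and -0.44, and rho over all 8 was 0.55 (exact permutation p = 0.171), 0.33 (0.428) and -0.43 (0.299). Adjusted p for r was 0.542 to 0.987. Hlf, the other PAR bZIP partner, was 2.55 to 6.29 TPM in AKO mice and 2.08 to 3.76 TPM in WT mice.

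The values of Per1 were closest to those of a glucocorticoid-responsive gene. Tsc22d3, which encodes GILZ and is induced through the glucocorticoid receptor, had 132.0, 166.5, 159.5 and 113.5 TPM in AKO mice 3, 8, 9 and 11, and 170.9, 131.7, 140.0 and 191.7 TPM in WT mice 2, 3, 4 and 5. Both genes were lowest in AKO mouse 11. The correlation of Per1 with Tsc22d3 was 0.95 (exact permutation p = 0.000868; rho = 0.86, exact permutation p = 0.0107) and stayed at 0.95 without AKO mice 8 and 11, the mice farthest from the median of Per1. It did not pass adjustment over the 360 relations (adjusted p = 0.116). Among 9296 tested genes of at least moderate level, Tsc22d3 had the highest r with Per1, a ranking looked up after the values were seen. For Fkbp5, another glucocorticoid target, r with Per1 was 0.74 (exact permutation p = 0.0389, adjusted p = 0.363; rho = 0.71, exact permutation p = 0.0576) and 0.73 without the same mice. For Per2 with Tsc22d3 it was 0.26 (exact permutation p = 0.522, adjusted p = 0.854; rho = 0.38, exact permutation p = 0.360) and -0.048 without AKO mouse 8 and WT mouse 3. Klf9, also a glucocorticoid target, had r = 0.75 with Per1 and 0.80 with Per2 (adjusted exact permutation p = 0.362 and 0.269). The other 5 of the 8 listed glucocorticoid-responsive genes had lower r with Per1, at 0.43 for Zbtb16, 0.31 for Dusp1, 0.24 for Mt1, 0.22 for Sgk1 and 0.14 for Mt2.

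No gene of the clock-related lists was called between genotypes. Of all genes tested, 0.0282% passed at an FDR below 0.05 in limma. Of the 36 listed genes that were tested, 0 passed in either direction. These were 1 of 2 paralogues of the activators, 2 of 3 ROR receptor genes, 4 of 4 further repressors, 2 of 2 PAR bZIP partners, 7 of 7 genes of PER and CRY turnover, 4 of 4 clock outputs, 8 of 8 glucocorticoid-responsive genes and 8 of 8 immediate-early genes. Medians of the log2 fold change were 0.21 for the further repressors, 0.13 for the PAR bZIP partners, 0.075 for PER and CRY turnover, 0.046 for clock outputs, -0.10 for the activator paralogue, -0.036 for the ROR receptors, -0.19 for glucocorticoid-responsive genes and 0.42 for immediate-early genes, beside 0.015 for all genes tested. At an unadjusted limma p below 0.05 there was 1 gene of the 36, beside 4.75% of all genes tested. It was Fosb, an immediate-early gene with 1.08 to 2.96 TPM in AKO mice and 0.600 to 1.09 TPM in WT mice (limma FDR = 0.831). Zbtb16, a glucocorticoid-responsive gene, had 21.7 ± 8.28 TPM in AKO mice and 31.5 ± 6.70 TPM in WT mice (limma FDR = 0.831).

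Cell type markers were most closely related to Cry2. The mean log2 level of the 7 fat cell markers had r = 0.89 with Cry2 (exact permutation p = 0.00481, adjusted p = 0.0538 over 20 relations; rho = 0.93, exact permutation p = 0.00223, adjusted p = 0.0223), and that of 7 macrophage markers r = -0.82 (exact permutation p = 0.00538, adjusted p = 0.0538; rho = -0.93, adjusted exact permutation p = 0.0223). The rank correlations passed the adjusted threshold and the values of r did not. The fat cell and macrophage scores put the 8 mice in exactly opposite orders. For any member the 2 rank correlations therefore differ only in sign and are not separate results. Without the 2 mice farthest in each score r was 0.78 and -0.86. All 7 fat cell markers had a log2 fold change below 0 in AKO mice and all 7 macrophage markers one above 0, with medians of -0.18 and 0.76. None was called, the smallest limma FDR being 0.831 in both lists, and AKO and WT values overlapped for every marker. Markers of a cell type share libraries, so these signs are not separate observations. For Arntl, r was -0.61 with the fat cell score and 0.60 with the macrophage score (exact permutation p = 0.104 and 0.117, adjusted p = 0.445 for both; rho = -0.52 and 0.52, exact permutation p = 0.197 for both). For Dbp it was 0.094 and -0.075, and for Nr1d2 -0.038 and 0.012 (exact permutation p = 0.830, 0.838, 0.919 and 0.977). With the fat cell score regressed out of each member, Arntl and Clock were negative with the other 8 members in 15 of 16 pairs, and Nr1d2 with Dbp had r = 0.96. Beyond this, the part of cell make-up in the clock values was not tested.

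The genes whose levels most resembled those of Arntl over the 8 mice were Rpf2 (r = 0.99), Plaa (0.98), Polh (0.98), Pam (0.98) and Ncl (0.97), among 9296 tested genes of at least moderate level. For Dbp they included Sparcl1 (r = 0.98), Cryzl1 (0.95), Aaed1 (0.94) and Ggnbp2 (0.94). These are descriptions of 8 mice, with no test.

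The summed rows of a gene carry no transcript name. One row held 100% of Per2 and Cry1, 98.3% of Nr1d1, 90.6% of Cry2, 84.8% of Nr1d2 and 84.6% of Arntl. Per1 was split between row 1 (46.2% of its level) and row 7 (40.4%). Row 1 had 8.17, 9.77, 11.3 and 8.11 TPM in AKO mice 3, 8, 9 and 11, and 6.24, 10.99, 9.19 and 13.4 TPM in WT mice 2, 3, 4 and 5. Row 7 had 7.94, 11.2, 7.16 and 6.20 TPM in AKO mice and 14.02, 6.56, 6.23 and 8.14 TPM in WT mice. WT mouse 2 was lowest in row 1 and highest in row 7, so the rows put the mice in different orders.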

How the data were processed

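RNA of epididymal fat from 4 AKO and 4 WT mice was made into TruSeq RNA libraries, per the labels' protocols. The authors deposited 1 table per library, in TPM, with 152298 rows, a sum of 1000000 within rounding and several rows per gene. HISAT2, DESeq2 and mm9 are named without role, per the submitters' processing notes. Quantifier and annotation: not given in the sources used here. Rows were summed per Ensembl identifier, and symbols came from a gene name table that matched 55141 of 55487 identifiers (Arntl is Bmal1). Another 401 rows without a gene (0.605% to 0.943% of TPM) were left out.

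AKO minus WT was fitted by limma 3.58.1 (R 4.3.3, trended variance) on log2(TPM + 1) over the 14172 genes that reached 1 TPM in 4 or more samples, with Benjamini-Hochberg adjustment and an FDR of 0.05. The added 1 shrinks fold changes of low genes. Permutation tests were exact and two-sided. The fit and the permutation tests were tested on simulated data. The mice are separate animals per the series design text. The members and lists were chosen with earlier results of these data known. Named genes are the members, 8 listed clock-related genes, up to 2 members per list by p, and the 5 genes most like Arntl and Dbp with a mean log2 of at least 3; others were chosen after their values were seen, and 1 gene is not reported here. RefSeq promoters and GENCODE M21 exons are of GRCm38, not the authors' mm9, and no coordinates were transferred.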

Additional observations from a re-analysis of the deposited data

Results flagged for a closer look

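Within a group of 4 mice, 1 sample stood far from the other 3 in 3 of 44 groups examined, where chance flags about 1 in 20. Cry1 was 7.14 TPM in AKO mouse 8, above 5.60 to 5.74 TPM in the other AKO mice. Hlf was 6.29 TPM in the same mouse, above 2.55 to 3.07 TPM in the others. Cry2 was 19.35 TPM in WT mouse 3, below 25.3 to 26.1 TPM in the other WT mice.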

How the results depend on the processing

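No clock gene was called under any alternative tried for AKO against WT, which were a pseudocount of 0.1, no filter on low values, 1 row per gene (the highest), sample quality weights, scaling by median ratios and leaving out each mouse. The count over all genes was 4, with 6 at a pseudocount of 0.1, 3 with the highest row, and 1 to 5 with a mouse left out (1 without AKO mouse 3, 2 without AKO mouse 11 and 2 without WT mouse 2). With a mouse left out, log2 fold changes ran from -0.27 to 0.11 for Arntl, -0.16 to 0.20 for Per3, -0.043 to 0.067 for Cry1, -0.14 to 0.095 for Nr1d1, -0.16 to 0.0097 for Per1, 0.12 to 0.38 for Dbp, 0.10 to 0.29 for Nr1d2, 0.077 to 0.29 for Per2, -0.25 to -0.11 for Cry2 and -0.18 to -0.075 for Clock. The difference Nr1d1 minus Arntl ran from -0.25 to 0.33, Per3 minus Arntl from -0.27 to 0.47, Dbp minus Arntl from 0.011 to 0.62 and Nr1d1 minus Dbp from -0.46 to -0.21.

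The number of member pairs past the threshold depended on the setting. It was 1 as reported, 7 with the highest row, 2 with median-ratio scaling, and 0 with centring on each genotype (576 pairings within groups), with rank correlation or without the 2 mice farthest from the median. With the centring, and without the 2 farthest mice, the pairings are too few for a lone pair to pass adjustment over the 45 pairs. A count of 0 there therefore does not show that a relation was lost. Nr1d2 with Dbp kept r = 0.93 and 0.89 in those settings. With the fat cell score regressed out, an alternative chosen after seeing the data, the count was 11, and p-values of such residuals are somewhat too small. With a mouse left out it was 0 to 7 (4 without AKO mouse 3, 2 without AKO mouse 11, 0 without WT mouse 3, 7 without WT mouse 4 and 0 without WT mouse 5). Why the count moved with the mouse left out was not tested. The sign of r was kept in 37 of the 45 pairs with the highest row, and in 37 without the 2 farthest mice. Among the pairs that turned, Per1 with Per2 went from r = 0.35 to -0.43 with the highest row. Nr1d1 with Dbp went from 0.48 to -0.17 without the 2 farthest mice. No paired analysis was possible because the groups share only the number 3, on different animals.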
